A study of Mus musculus with 13 samples.

Results

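The genes described here are the amyloid precursor protein genes and genes linked to Alzheimer's disease risk, a list of 9 symbols of which 8 were analysed: *App*, *Aplp1*, *Aplp2*, *Psen2*, *Sorl1*, *Picalm*, *Apoe* and *Clu*. Members were taken as the rows of the deposited count table that carry a listed symbol, and they are 8 of 12009 genes in all. The remaining listed gene, *Bace1*, was not analysed here. All 8 had passed the filter on low counts that the table had been through before deposit.

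RNA was sequenced from mice hemizygous for the *Slc6a2*-*eGFP*/*Rpl10a* transgene on a C57BL/6 background, in which the promoter of *Slc6a2*, the norepinephrine transporter (NET) gene, drives an EGFP-tagged ribosomal protein. Translating ribosome affinity purification (TRAP) pulls down tagged ribosomes with their mRNA, so that TRAP libraries are enriched in translating mRNA of noradrenergic neurons, while the input is total RNA of the same kind of hindbrain homogenate, without cerebellum. DSP-4, a neurotoxin that NET carries into the cell, was injected into the peritoneum at 50 mg/kg on day 1 and again on day 7, controls were given saline, and tissue for TRAP was taken on day 14. Every group carried the transgene, and each replicate pooled 2 mice of one sex, 6 to 8 months old. There were 6 DSP-4 TRAP libraries (replicates 1, 2, 3, 7, 8 and 9), 3 saline TRAP libraries (replicates 4, 6 and 12), 2 DSP-4 input libraries (replicates 2 and 7) and 2 saline input libraries (replicates 5 and 12).

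APP is a membrane protein of synapses and axons. Cleavage by beta-secretase (BACE1) and then by gamma-secretase, whose catalytic subunit is a presenilin, releases amyloid-beta, while cleavage by an alpha-secretase such as ADAM10 prevents it. APLP1 and APLP2 are its paralogs, cut by the same kind of enzymes but without the amyloid-beta sequence. SORL1 is a sorting receptor that carries APP back from endosomes to the Golgi, PICALM is a clathrin adaptor that shapes endocytosis, and ApoE and clusterin are secreted lipid and protein carriers that bind amyloid-beta and are made in the brain mainly by astrocytes.

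The 3 genes of the precursor family are told apart here by their counts, so a stretch in which they resemble each other is shown: the last 90 bases of each coding sequence, read 5′ to 3′ on the minus strand of GRCm38 with GENCODE vM21 annotation, each within 1 exon and ending with the stop codon. Capitals mark the 21 bases that encode the tyrosine-containing motif of the cytoplasmic tail, the docking site of adaptor proteins.
App, chr16:84955331-84955420: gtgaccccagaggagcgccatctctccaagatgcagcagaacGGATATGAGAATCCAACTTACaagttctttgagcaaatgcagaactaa
Aplp1, chr7:30435293-30435382: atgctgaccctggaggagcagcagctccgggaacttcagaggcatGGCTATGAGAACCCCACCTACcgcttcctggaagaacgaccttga
Aplp2, chr9:31150871-31150960: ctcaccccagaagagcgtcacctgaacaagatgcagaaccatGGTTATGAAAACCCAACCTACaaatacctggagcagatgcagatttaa
In the capitals, 16 of the 21 bases were the same in all 3 genes, 17 in *App* and *Aplp1*, 17 in *App* and *Aplp2*, and 18 in *Aplp1* and *Aplp2*. The capitals were picked as the in-frame stretch of 21 bases most alike in the 3 tails, so the 16 is the highest count by choice. No run of 25 bases was shared between any pair of the 3 coding sequences (2064, 1941 and 2232 such runs in *App*, *Aplp1* and *Aplp2*), although the capitals show where shorter stretches are close. GC content of these tails was 46.7% in *App*, 57.8% in *Aplp1* and 45.6% in *Aplp2*.

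Counts per library totalled 17491357 to 27215994 in DSP-4 TRAP, 19156476 to 29199550 in saline TRAP, 21697383 and 24374141 in DSP-4 input, and 21725669 and 28208463 in saline input. Of 10 noradrenergic marker genes, 10 were higher in TRAP than in input in both treatments (edgeR FDR under 0.1). *Slc6a2* stood at 118 to 128 CPM in saline TRAP and 27.7 to 73.8 CPM in DSP-4 TRAP against 1.83 to 5.06 CPM in input, that is, at 25.6 to 27.6 times the mean input of its treatment in saline and 8.72 to 23.3 times in DSP-4. By the methods, 6 replicates were collected per treatment and 2 saline samples with less than 10-fold *Slc6a2* enrichment were removed, so the saline range was selected on this value and the DSP-4 range was not. The labels give 3 saline TRAP libraries, and how this number arose from those is not known here. None of 13 astrocyte, 13 microglial or 10 oligodendrocyte markers was at 0 in any library. After the filter on low counts, however, only 0 to 22 of the 12009 genes were at 0 in a library. The lack of zeros therefore does not tell how much mRNA of other cells the TRAP libraries held. Among TRAP libraries, DSP-4 replicates 2 and 3 stood apart on the first and second principal components, which held 34.5% and 21.3% of the variance, so results resting on them are also given without them. Fewer cells of a type and less RNA per cell cannot be told apart in such libraries.

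*App* is encoded on chromosome 16 (84949685 to 85173766, minus strand), and its CPM (counts scaled to the library total with TMM factors) were 1441, 1327 and 1563 in the 3 saline TRAP libraries (replicates 4, 6 and 12) and 1128 and 959 in saline input (replicates 5 and 12). In DSP-4 mice *App* stood at 1330, 756, 1330, 1624, 1828 and 1669 CPM in TRAP (replicates 1, 2, 3, 7, 8 and 9) and at 1045 and 882 CPM in input (replicates 2 and 7). All 3 saline TRAP libraries lay above both saline inputs, while in DSP-4 mice 5 of the 6 TRAP libraries lay above both inputs and replicate 2 lay below both. By mean count *App* was the 49th highest of all genes in saline TRAP and the 87th in saline input.

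*Aplp1* (chromosome 7, 30434982 to 30445535, minus strand) went the other way. It stood at 693, 572 and 568 CPM in saline TRAP and at 1523 and 1456 CPM in saline input. In DSP-4 mice the values were 642, 469, 858, 649, 601 and 643 CPM in TRAP against 1841 and 1685 CPM in input. Every TRAP library of either treatment was below every input library, and by mean count the gene was the 51st highest in saline input and the 211th in saline TRAP. *Aplp2* (chromosome 9, 31149557 to 31211815, minus strand) stood at 390, 498 and 573 CPM in saline TRAP, above the 341 CPM of both saline inputs. In DSP-4 mice *Aplp2* was at 439, 737, 408, 413, 494 and 488 CPM in TRAP and at 416 and 358 CPM in input, where the groups overlapped and replicate 2 was the highest library.

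*Psen2* (chromosome 1, 180227004 to 180263438, minus strand), which encodes presenilin 2, was the member with the fewest counts. It stood at 24.8, 27.8 and 25.7 CPM in saline TRAP, above the 22.9 and 19.7 CPM of saline input. In DSP-4 mice it was at 26.6, 51.1, 27.8, 16.8, 26.1 and 21.8 CPM in TRAP and 21.5 and 18.1 CPM in input, with replicate 2 above and replicate 7 below all other libraries of the series.

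*Sorl1* (chromosome 9, 41964720 to 42124297, minus strand) stood at 174, 248 and 265 CPM in saline TRAP and at 83.6 and 88.4 CPM in saline input. After DSP-4 it was at 164, 217, 151, 186, 232 and 215 CPM in TRAP and 106 and 97.6 CPM in input. *Picalm* (chromosome 7, 90130213 to 90213465, plus strand) stood at 289, 266 and 305 CPM in saline TRAP and at 162 and 146 CPM in saline input. After DSP-4 *Picalm* was at 262, 255, 287, 339, 328 and 326 CPM in TRAP against 135 and 104 CPM in input. For both genes all 9 TRAP libraries exceeded all 4 inputs.

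*Apoe* (chromosome 7, 19696109 to 19699188, minus strand) stood at 1518, 1249 and 993 CPM in saline TRAP and at 2029 and 1729 CPM in saline input, where it was the 32nd highest gene. In DSP-4 mice it was at 1230, 912, 1735, 1580, 1601 and 1423 CPM in TRAP and 2209 and 2128 CPM in input. Within each treatment every TRAP library was below both inputs, with DSP-4 replicate 3 reaching the lower of the saline inputs. *Clu*, the clusterin gene (chromosome 14, 65968483 to 65981547, plus strand), stood at 503, 523 and 442 CPM in saline TRAP and 599 and 521 CPM in saline input. With DSP-4 the *Clu* values were 385, 377, 493, 498, 570 and 513 CPM in TRAP and 582 and 560 CPM in input, and the groups overlapped in both treatments.

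**Figure D1:**
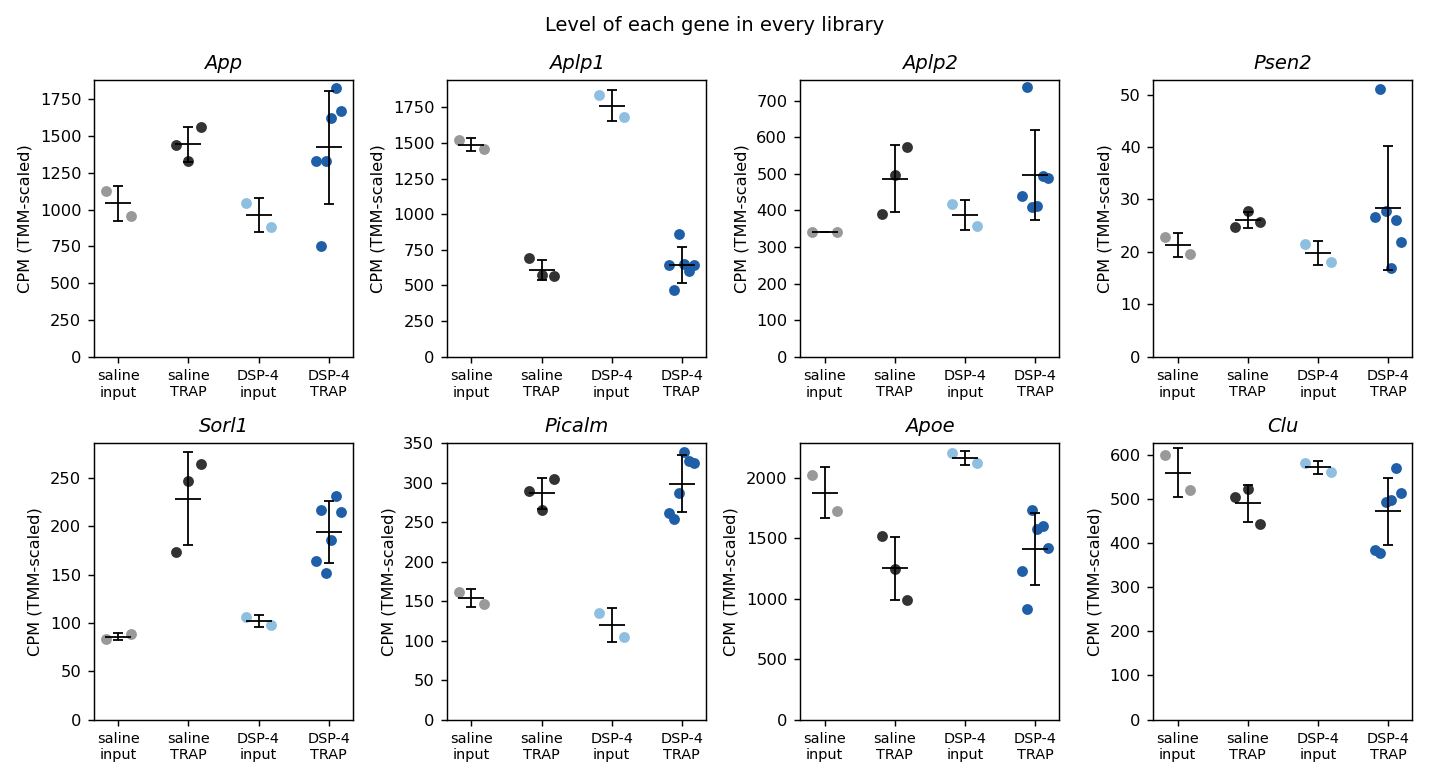
CPM (TMM-scaled, linear axis from 0) of the 8 genes in every library, 1 point per library, with the mean and SD of each group. TRAP points of *Aplp1* and *Apoe* lie below the inputs of the same treatment and those of *Sorl1* and *Picalm* above them, while 1 DSP-4 TRAP library (replicate 2) stands at 737 CPM for *Aplp2* and 51.1 CPM for *Psen2*.

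Levels of different genes were compared per kilobase of the principal transcript. In saline TRAP the order was *Apoe* (890 CPM per kb), *App* (455), *Clu* (271), *Aplp1* (261), *Aplp2* (134), *Picalm* (34.9), *Sorl1* (21.3) and *Psen2* (12.9). *Clu* and *Aplp1*, neighbours in that order, did not differ beyond their spread (coefficients of variation 8.62% and 11.6%, n = 3). In saline input the order was *Apoe* (1334 CPM per kb), *Aplp1* (636), *App* (329), *Clu* (309), *Aplp2* (93.8), *Picalm* (18.8), *Psen2* (10.5) and *Sorl1* (8.02), and there *App* and *Clu* did not differ beyond their spread (11.4% and 9.88%, n = 2). The place of *App* depended on the length used: per kb of all annotated exons, whose union is 12996 bases against 3176 bases for the principal transcript, *App* in saline TRAP (111 CPM per kb) came after *Aplp1* (203) and *Clu* (143).

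The first comparison asked which of these mRNAs were enriched with the ribosomes of noradrenergic neurons in saline mice. *Sorl1* and *Picalm* were higher in TRAP than in input, and *Aplp1* and *Apoe* were lower. *Sorl1* was 2.66-fold higher (log2 fold change 1.41 ± 0.22 SE, edgeR FDR 0.000513) and *Picalm* 1.86-fold higher (0.90 ± 0.18, FDR 0.00250), with 3 TRAP and 2 input libraries. *Aplp1* was 2.44-fold lower (−1.29 ± 0.20, edgeR FDR 0.000546) and *Apoe* was at −0.58 ± 0.24 (FDR 0.0860).

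Of the 8 members, 2 were therefore higher and 2 lower, where 19.5% and 15.7% of all genes tested were called in these directions and 35.1% in either. TRAP and input libraries did not overlap for 7 of the 8, against 59.8% of all genes, with 5 members above (29.6% of all genes) and 2 below (30.2%). The median log2 fold change was 0.38 over the members and −0.02 over all genes. *App* and *Aplp2* had log2 fold changes of 0.47 (95% interval −0.11 to 1.05, edgeR FDR 0.224) and 0.51 (0.0051 to 1.02, FDR 0.126) without passing the threshold of 0.1. *Psen2* (0.29, −0.43 to 1.01) and *Clu* (−0.19, −0.59 to 0.21) did not pass either.

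Libraries made from one homogenate can be set side by side in saline replicate 12 alone. There TRAP over input was 0.70 on the log2 scale for *App*, −1.36 for *Aplp1*, 0.75 for *Aplp2*, 1.58 for *Sorl1*, 1.06 for *Picalm* and −0.80 for *Apoe*. With the replicate number as a fixed block, 2 of the 4 calls were lost, those of *Apoe* (−0.80, edgeR FDR 0.313) and *Picalm* (1.06, FDR 0.148), and calls over all genes fell from 4217 to 1422. The saline estimate then rests on that 1 pair.

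TRAP over input also moved with base composition. Across 11560 annotated genes its log2 fold change had a Spearman correlation of −0.42 with GC content (of each gene's longest transcript), and its median went from 0.45 in the fifth of genes with the lowest GC content to −0.42 in the highest. The members' GC contents were 59.5% in *Apoe*, 59.4% in *Aplp1*, 55.6% in *Clu*, 55.1% in *Psen2*, 50.7% in *Sorl1*, 48.4% in *Aplp2*, 46.1% in *App* and 42.2% in *Picalm*, and the principal transcript of *App*, shorter than its longest, had 51.4%. With a GC offset per library *Sorl1* stayed at 1.45, *Aplp1* was at −0.83 (edgeR FDR 0.0235) and *Picalm* at 0.51 (FDR 0.0297), whereas *Apoe* was at −0.13 (FDR 0.796) and no longer lower. *Apoe* also lost its call when saline input replicate 5 or 12, saline TRAP replicate 6 or 12, DSP-4 TRAP replicate 9, or DSP-4 input replicate 2 or 7 was left out (FDR 0.105 to 0.335). *App* passed without DSP-4 TRAP replicate 2 (edgeR FDR 0.0531), without replicates 2 and 3 (FDR 0.0378), and when only the groups compared entered the fit (FDR 0.0767). *Aplp2* passed in those fits (edgeR FDR 0.0295, 0.0235 and 0.0643), without saline TRAP replicate 4 (FDR 0.0851), with the replicate as a random effect (FDR 0.0770) and by DESeq2 (FDR 0.0906).

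Astrocyte markers are given beside *Apoe* and *Clu*. Summed CPM of the 13 astrocyte markers were 4651 to 4729 in saline TRAP and 3957 to 4208 in saline input. Of the 13, 5 were higher in TRAP (among them *Slc1a2* and *Aqp4*) and 2 lower (*Gfap* and *Ntsr2*), where 19.5% and 15.7% of all genes were. GC content was 45.3% in *Slc1a2* and 41.4% in *Aqp4*, and 55.5% in *Gfap* and 52.5% in *Ntsr2*. The sums in TRAP lay above those in input, but a sum weighs genes by level, and *Slc1a2* alone had means of 650 and 170 CPM. *Gfap*, with means of 238 and 347 CPM, was lower in TRAP like *Apoe*. The part of astrocyte mRNA in the TRAP levels of *Apoe* and *Clu* was not tested, nor was the part of GC content in the marker calls. Microglial markers summed to 288 to 330 CPM in saline TRAP and 361 to 363 CPM in saline input, and oligodendrocyte markers to 7206 to 7691 and 7918 to 9010 CPM.

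After DSP-4 the same 4 genes were called in the same directions and *App* was called as well. *Picalm* was 2.50-fold higher in TRAP than in input (log2 fold change 1.32 ± 0.17 SE, edgeR FDR 3.15e-05), *Sorl1* 1.91-fold higher (0.93 ± 0.20, FDR 0.00162) and *App* 1.48-fold higher (0.56 ± 0.25, FDR 0.0819), with 6 TRAP and 2 input libraries. *Aplp1* was 2.74-fold lower (−1.45 ± 0.17, edgeR FDR 1.59e-05) and *Apoe* 1.53-fold lower (−0.62 ± 0.21, FDR 0.0271). *Aplp2* (0.36, 95% interval −0.10 to 0.82), *Psen2* (0.52, −0.14 to 1.18) and *Clu* (−0.27, −0.63 to 0.08) did not pass.

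These are 3 members higher and 2 lower, where 27.3% and 23.8% of all genes were called in these directions and 51.1% in either, and TRAP and input did not overlap for 4 of the 8, against 50.6% of all genes, with *Sorl1* and *Picalm* above (26.4% of all genes) and *Aplp1* and *Apoe* below (24.3%). The correlation with GC content across genes was −0.58. In the homogenate pairs, *App* was at −0.47 in replicate 2 and 0.88 in replicate 7 on the log2 scale, and *Picalm* at 0.92 and 1.70. *Aplp1* (−1.97 and −1.38), *Sorl1* (1.03 and 0.93) and *Apoe* (−1.28 and −0.43) had the same sign in both pairs. The call of *App* was lost with the replicate block (0.21, edgeR FDR 0.698), with the GC offset (0.26, FDR 0.373), and without DSP-4 TRAP replicate 7, 8 or 9 or DSP-4 input replicate 2 or 7 (FDR 0.122 to 0.374). It was also lost with upper-quartile scaling (FDR 0.114), in limma (FDR 0.110 with either prior count), with only the groups compared in the fit (FDR 0.132) and with the replicate as a random effect (FDR 0.135), and it was kept with RLE scaling, in DESeq2, with the filter on low CPM and without DSP-4 TRAP replicates 2 and 3. Without DSP-4 TRAP replicate 2 it was 0.69 (FDR 0.00284). *Apoe* turned to 0.14 with the GC offset (edgeR FDR 0.729), and it lost its call without DSP-4 input replicate 2 (FDR 0.133) or 7 (FDR 0.124). *Psen2* passed with the GC offset (0.94, FDR 0.0203) and without DSP-4 TRAP replicate 7 (FDR 0.0892).

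**Figure D2:**
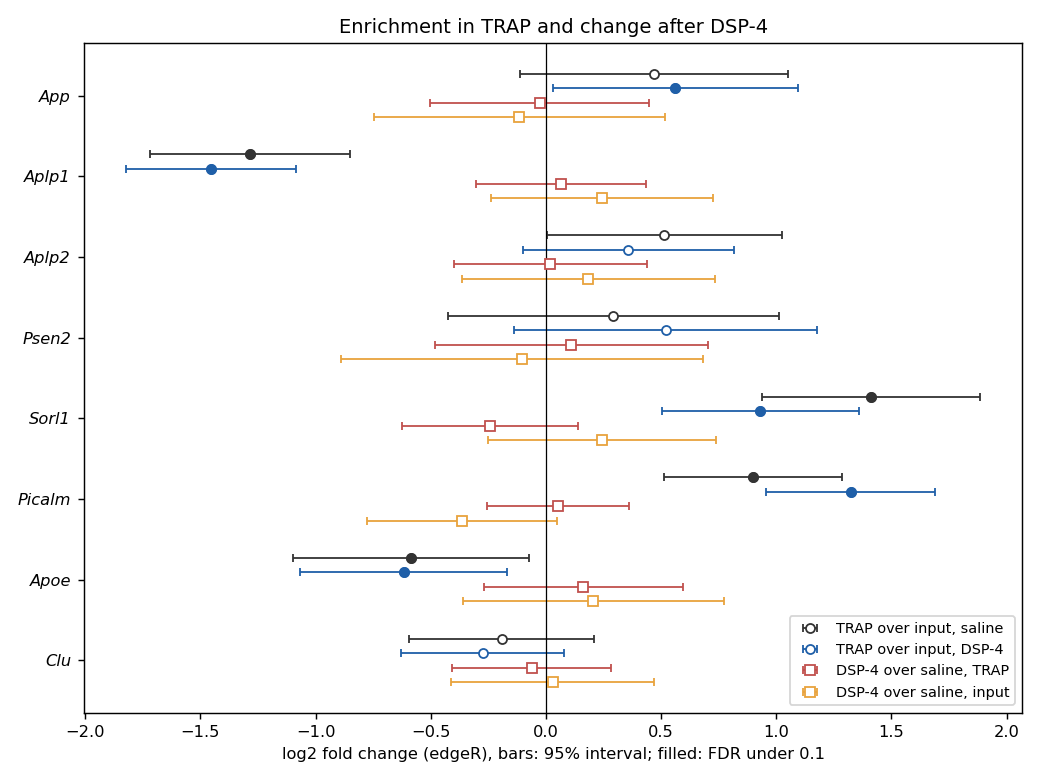
Log2 fold changes of the 8 genes from edgeR with 95% intervals, for TRAP over input in saline and DSP-4 mice (circles) and DSP-4 over saline in TRAP and input (squares), with filled symbols for an FDR under 0.1. *Sorl1* (1.41 and 0.93) and *Picalm* (0.90 and 1.32) lie to the right and *Aplp1* (−1.29 and −1.45) to the left in TRAP over input, while every interval of DSP-4 over saline includes 0.

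**Figure D3:**
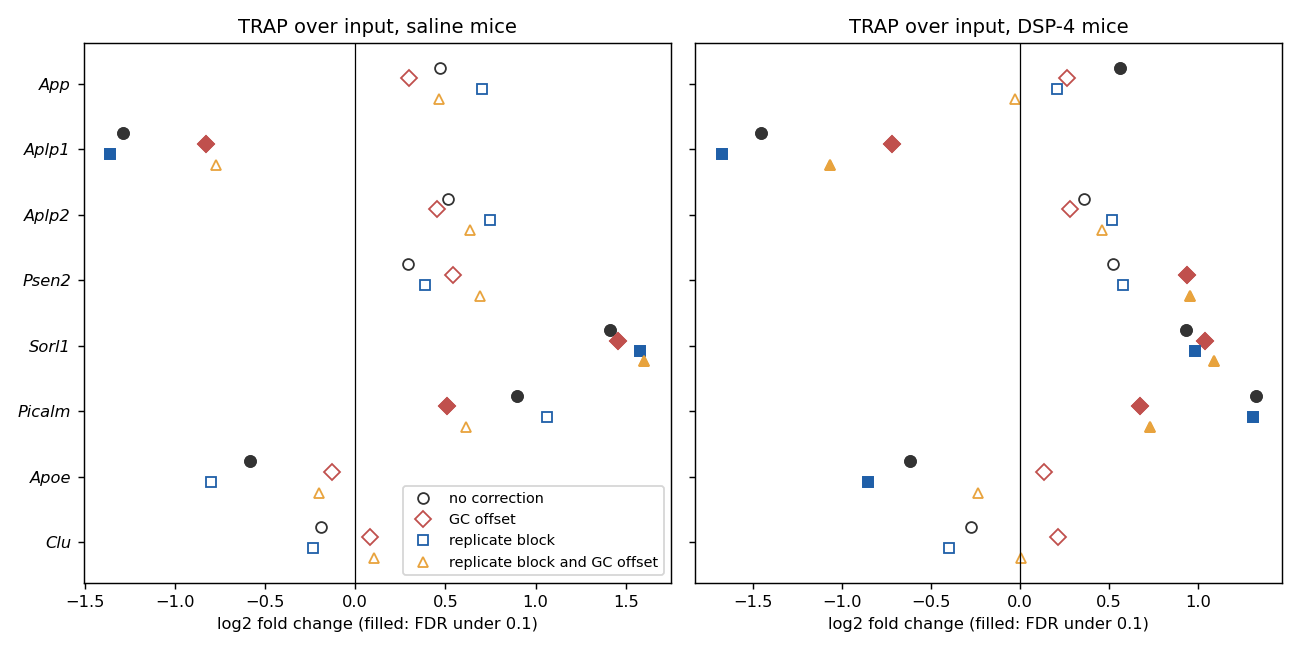
Log2 fold change of TRAP over input in saline and DSP-4 mice for each gene under 4 treatments of the counts: no correction, a GC offset per library, the replicate number as a block, and both together, with filled symbols for an edgeR FDR under 0.1. *Sorl1* is filled throughout, and *Apoe* moves from −0.58 to −0.13 in saline mice and from −0.62 to 0.14 in DSP-4 mice with the GC offset.

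Ratios of counts within a library do not depend on the scaling between libraries. *App* had 2.08 to 2.75 counts per *Aplp1* count in saline TRAP and 1.55 to 3.04 in DSP-4 TRAP, but 0.659 and 0.741 in saline input and 0.523 and 0.568 in DSP-4 input. All 9 TRAP libraries thus held more *App* than *Aplp1* counts and all 4 inputs held fewer. *Aplp2* had 0.563 to 1.01 counts per *Aplp1* count in saline TRAP and 0.476 to 1.57 in DSP-4 TRAP, against 0.213 to 0.234 in the 4 inputs, again without overlap. Of single genes, 59.8% did not overlap between TRAP and input in saline mice and 50.6% in DSP-4 mice. Both ratios set a gene of lower GC content (*App* 46.1%, *Aplp2* 48.4%) against *Aplp1* (59.4%), and TRAP over input fell with GC content across genes. The part of GC content in these ratios was not tested. The ratio of *App* to *Aplp2* did not separate the groups, being 2.67 to 3.69 in saline TRAP and 2.82 and 3.31 in saline input, and its lowest value was 1.03 in DSP-4 TRAP replicate 2. The ratio of *Apoe* to *Clu* was 2.24 to 3.01 in saline TRAP and 3.32 and 3.39 in saline input, and 2.42 to 3.52 in DSP-4 TRAP and 3.8 in both DSP-4 inputs.

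**Figure D4:**
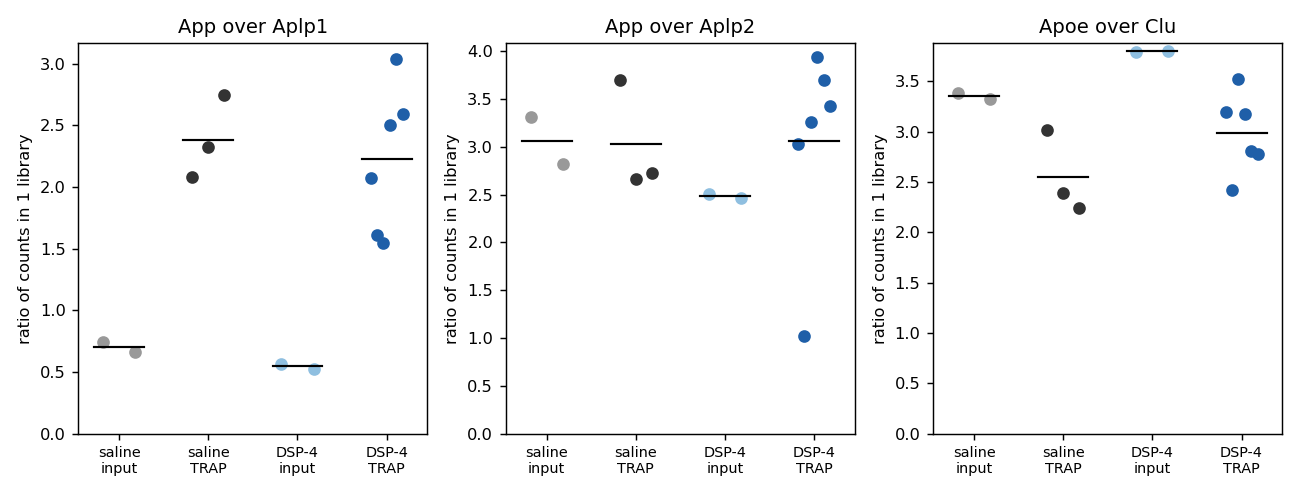
Ratio of the counts of *App* to *Aplp1*, *App* to *Aplp2* and *Apoe* to *Clu* in each library (points, axis from 0), with the group mean as a line. *App* to *Aplp1* is between 1.55 and 3.04 in TRAP and between 0.523 and 0.741 in input, whereas *App* to *Aplp2* overlaps between the groups.

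DSP-4 against saline in TRAP, which compares the mRNA of the noradrenergic pulldown between treatments, called none of the 8 members. Of all 12009 genes, 0.025% were called, namely the noradrenergic genes *Slc6a2*, *Dbh* (dopamine beta-hydroxylase) and *Gal* (galanin), all lower after DSP-4. The 10 noradrenergic markers had a median log2 fold change of −0.74, with 0 positive. They summed to 613 to 818 CPM in DSP-4 TRAP and 980 to 1155 CPM in saline TRAP. The tag itself is driven by the *Slc6a2* promoter, and how far the share of noradrenergic mRNA in the pulldown differed between treatments was not tested. The members' edgeR FDR was 0.9998 throughout, 0 of 8 had an unadjusted p under 0.05 against 1.88% of all genes, and DESeq2 and limma called 0 of 8 as well. For each member the 6 DSP-4 and 3 saline TRAP libraries overlapped, where 1.28% of all genes did not overlap (0.716% above and 0.566% below).

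*App* was at 1423 ± 381 CPM (SD, n = 6) after DSP-4 and 1444 ± 118 CPM (n = 3) after saline, a log2 fold change of −0.03 with a 95% interval of −0.50 to 0.45. *Aplp1* was at 0.07 (−0.30 to 0.43), *Aplp2* at 0.02 (−0.40 to 0.44) and *Psen2* at 0.11 (−0.48 to 0.70). *Sorl1* had the smallest p of the 8 (0.193 in the edgeR fit), at 194 ± 32.2 CPM (n = 6) and 229 ± 48.2 CPM (n = 3), or −0.24 (−0.62 to 0.14). *Picalm* was at 0.05 (−0.25 to 0.36), *Apoe* at 0.16 (−0.27 to 0.60) and *Clu* at −0.06 (−0.41 to 0.28). The intervals reach from 0.716 to 1.63 times the saline level for *Psen2*, the widest, and from 0.838 to 1.29 times for *Picalm*, the narrowest, so changes within them cannot be told from none. Without DSP-4 TRAP replicates 2 and 3 the values were 0.16 for *App*, −0.09 for *Aplp2* and −0.19 for *Psen2*, opposite in sign, with none passing.

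In whole hindbrain, DSP-4 against saline called none of the members and 0% of all genes. By edgeR, 2.55% of all genes and 0 of the 8 members had an unadjusted p under 0.05, and *Picalm*, with the smallest p of the members (0.0800), was at 120 ± 21.7 CPM after DSP-4 and 154 ± 11.4 CPM after saline (SD, n = 2 each), a log2 fold change of −0.36 with a 95% interval of −0.78 to 0.05. DSP-4 and saline inputs did not overlap for 5 of the 8 against 44.5% of all genes, with *Aplp1*, *Aplp2*, *Sorl1* and *Apoe* above (18.2% of all genes) and *Picalm* below (26.3%). For the difference between treatments in the TRAP over input log2 fold change, edgeR called 0% of all genes and no member, with 2.67% of all genes and 0 members at an unadjusted p under 0.05, and the members nearest to the threshold were *Picalm* with a difference of 0.43 ± 0.24 (SE, unadjusted edgeR p 0.0936) and *Sorl1* with −0.48 ± 0.28 (p 0.111). All 5 measured choroid plexus and ependyma markers had positive log2 fold changes between the inputs (median 1.48, none called), and they summed to 3618 and 1262 CPM in DSP-4 input and 90.7 and 1085 CPM in saline input. The part of this tissue in the input values was not tested. The GC content moved with both comparisons, with a Spearman correlation of 0.65 across genes for DSP-4 over saline in input and −0.56 for the difference.

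Around the members, other genes of amyloid precursor handling were described by lists, in TRAP over input of saline mice unless stated otherwise. Of all genes, 19.5% were called higher and 15.7% lower in saline mice, and 27.3% and 23.8% in DSP-4 mice. The list values carry no GC offset, although TRAP over input fell with GC content across genes (Spearman correlation −0.42 in saline and −0.58 in DSP-4 mice). The part of GC content in the calls of these lists was not tested. Of the 7 measured gamma-secretase genes, 0 were higher and 1 was lower, *Aph1a*, a subunit gene (31 ± 3.5 CPM in TRAP and 52 ± 0.42 CPM in input, log2 fold change −0.76, edgeR FDR 0.0109). *Ncstn* (nicastrin) and *Psenen* were both at −0.45, without passing. In DSP-4 mice *Aph1b* was higher in TRAP than in input (0.53), and *Ncstn* (−0.51, edgeR FDR 0.0523), *Aph1a* (−1.07, FDR 0.000143) and *Psenen* (−0.74, FDR 0.0308) were lower. *Aph1b* and *Aph1c* are close paralogs whose reads may be split, and 12.9% of the exonic length of *Aph1a* and 9.33% of that of *Psenen* overlap other genes, so these values are uncertain.

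Of 4 measured alpha- and beta-secretase genes, *Adam10*, the main neuronal alpha-secretase, was higher in TRAP (64 ± 7.4 CPM against 39 ± 1.6 CPM, log2 fold change 0.69, edgeR FDR 0.0351), and *Adam9* (0.23), *Adam17* (0.05) and *Bace2* (−0.37) did not pass. After DSP-4 *Adam10* (1.23, edgeR FDR 0.000337) and *Adam9* (0.80, FDR 0.00971) were higher. Of 5 amyloid-beta degrading enzymes, *Ide*, insulin-degrading enzyme, was higher (0.96, edgeR FDR 0.0163), and *Ece1* (1.01), *Ece2* (−0.40) and *Ace* (0.36) did not pass. In TRAP over input of DSP-4 mice *Ide* (1.09) and *Mme*, the neprilysin gene (0.73), were higher and *Ece2* (−0.41) and *Ace* (−0.65) lower, all at an edgeR FDR under 0.1. *Ace* had means of 14.6 CPM in saline and 16.3 CPM in DSP-4 TRAP, and of 11.4 and 25.6 CPM in the inputs. The *Ece2* values are uncertain, since 57.5% of its exonic length overlaps another annotated gene.

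Among 27 adaptor and sorting genes, *Sorl1* included, 7 were higher and 4 lower, where 19.5% and 15.7% of all genes were. *Sorcs2*, a relative of *Sorl1* in the VPS10-domain receptor family, was 22 ± 6.4 CPM in TRAP and 8.5 ± 1.8 CPM in input (log2 fold change 1.35, edgeR FDR 0.00485), and *Sorcs1*, *Sort1* and the retromer gene *Vps35* were also higher. The cytoplasmic tail adaptors *Apba3* (−1.52, edgeR FDR 0.000637) and *Mapk8ip1* (−0.94, FDR 0.000852) were lower, and so were *Apbb1* and *Numb*. In DSP-4 mice 6 were higher and 3 lower (27.3% and 23.8% of all genes), and *Sorcs2* was at 0.34 (edgeR FDR 0.314).

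Of 14 measured apolipoprotein and receptor genes, 4 were higher and 2 lower (19.5% and 15.7% of all genes), *Apoe* being one of the latter. Among the higher genes were the ApoE receptor gene *Vldlr* (0.94, edgeR FDR 0.0260) and the lipid transporter genes *Abcg1* (1.15, FDR 0.00617) and *Abca1* (1.27, FDR 0.0275). *Lrp1*, another ApoE receptor gene, was lower (−0.47, edgeR FDR 0.0562). In DSP-4 mice 4 were higher and 4 lower, with *Vldlr*, *Abcg1* and *Abca1* again among the higher ones.

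The endocytosis and risk list, which holds *Picalm*, had 10 of 21 measured genes higher and 2 lower, with a median log2 fold change of 0.28. *Synj1*, which encodes the endocytic lipid phosphatase synaptojanin 1, was at 357 ± 61.5 CPM in TRAP and 133 ± 0.055 CPM in input (log2 fold change 1.42, edgeR FDR 0.000225). The clathrin heavy chain gene *Cltc* (1.47, edgeR FDR 0.00110) and the lysosomal gene *Tmem106b* (1.01, FDR 0.000547) were higher, whereas the clathrin light chain gene *Cltb* (−1.13, FDR 0.000495) and *Zcwpw1* were lower. In DSP-4 mice 10 were higher and 1 lower. Of the 4 measured microglial risk genes 1 was lower, *Tyrobp* (−1.06, edgeR FDR 0.0792), and *Trem2* was at −0.03. Of 12 genes of tau and its kinases, 3 were higher (*Mapt*, the tau gene, *Gsk3b* and *Mark3*) and 3 lower (*Cdk5r2*, *Gsk3a* and *Fyn*). *Gsk3b* was at 0.46 (edgeR FDR 0.0431) and *Gsk3a* at −1.81 (FDR 0.00708), although 28.3% of the exonic length of *Gsk3a* overlaps an antisense gene. In TRAP over input of DSP-4 mice, 4 genes of this list were higher and 6 lower, with *Dyrk1a* added to the higher and *Cdk5*, *Mark2* and *Mark4* to the lower ones.

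**Figure D5:**
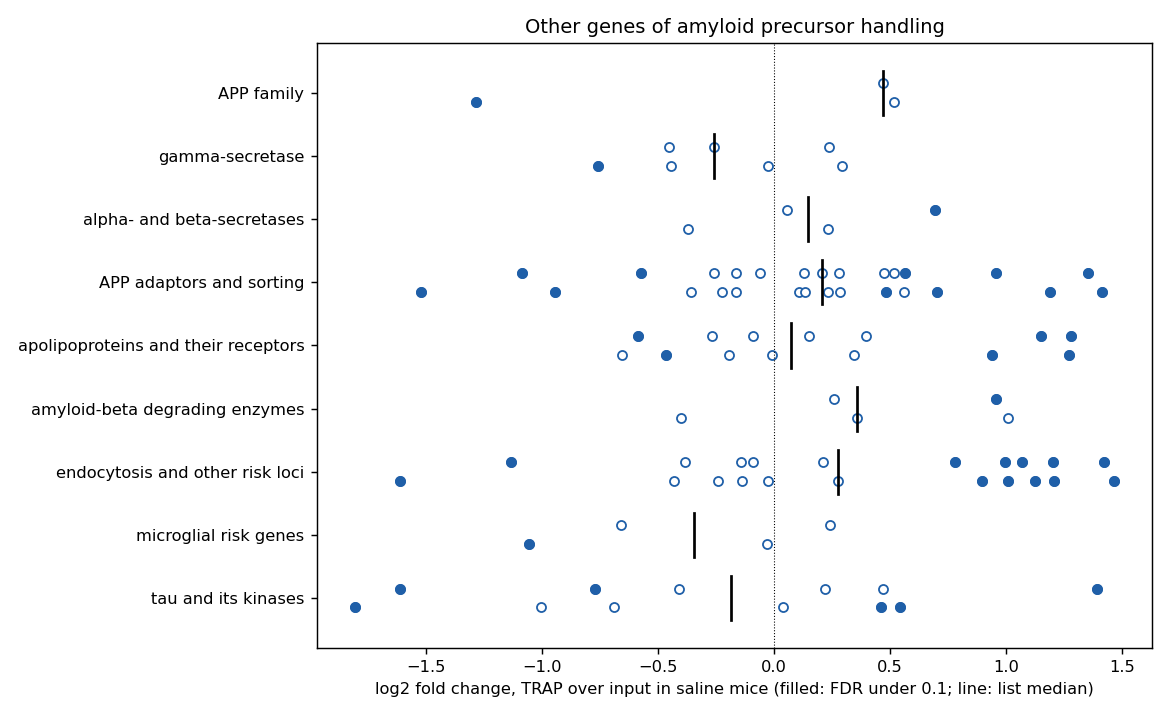
Log2 fold change of TRAP over input in saline mice for every measured gene of 9 lists, 1 point per gene, filled for an edgeR FDR under 0.1, with the list median as a line. Filled points lie on both sides of 0 in 4 of the lists: adaptors and sorting (7 higher, 4 lower), apolipoproteins (4 and 2), endocytosis (10 and 2) and tau (3 and 3). Each of the other 5 holds 1 filled point.

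No gene of these lists was called between DSP-4 and saline in TRAP. None was called in input or for the difference between treatments in TRAP over input either. In DSP-4 over saline in TRAP, the smallest p in any list was that of *Zcwpw1* (log2 fold change 0.90, unadjusted edgeR p 0.0560, FDR 0.9998), at 8.7 ± 4.6 CPM after DSP-4 (SD, n = 6) and 4.6 ± 1.2 CPM after saline (n = 3). *Sorcs2* was at −0.39 (p 0.107 in edgeR), *Ctss*, a microglial protease gene, at 0.31 (p 0.164), *Lrp10* at −0.26 (p 0.187) and *Lrp4* at −0.49 (p 0.199).

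Members differed in how they varied across libraries. As a description over the 13 libraries, which mix TRAP and input, log2 CPM of *Aplp1* had a Pearson r of 0.86 with *Apoe* and of −0.94 with *Sorl1* and −0.90 with *Picalm*, and *Apoe* and *Clu* had 0.83. Over the 9 TRAP libraries alone, *Apoe* and *Clu* were at 0.73, *Aplp1* and *Apoe* at 0.82, *Aplp1* and *Sorl1* at −0.73, *Aplp1* and *Picalm* at 0.28, *App* and *Picalm* at 0.80, *App* and *Psen2* at −0.87, and *Aplp2* and *Apoe* at −0.84, with replicate 2 at an extreme for most of these genes. The genes whose log2 CPM was most like that of a member over the 13 libraries were *Epm2aip1*, *Atl1* and *Zmym4* for *App* (r 0.97 each), *Fndc4* (0.99), *Car11* and *Fbxo44* (0.98 each) for *Aplp1*, and *Smarcc1* (0.97) and *Epn2* (0.96) for *Aplp2*. They were *Pdzd8*, *Rtn4* and *Nae1* for *Picalm* (0.99 each), *Ep300*, *Atp2b2* and *Huwe1* for *Sorl1* (0.97 each), and *Gnptg* (0.97), *Rnaset2a* (0.96) and *Mrpl40* (0.95) for *Apoe*. *Clu* had *Tnip2*, *C87436* (0.93 each) and *Vkorc1* (0.92), and *Psen2* had *1810030O07Rik*, *Klhl33* (0.92 each) and *Haglr* (0.90).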

How the data were processed

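By the methods, the authors aligned reads to mm10 (STAR) and counted them per gene (featureCounts). The deposited table held whole numbers per gene. It has 12009 genes and 13 libraries, and was titled filtered and normalized. Its values were taken as counts that are not normalized, because they are whole numbers and the library sizes after TMM scaling still ranged from 17697580 to 29675503, 1.68-fold, whereas counts already scaled between libraries would be near equal. If they had been scaled in some other way, the CPM would keep that scaling. Software versions and the use of strand are not given in the sources read for it. The lowest mean count of a gene was 78.4, so genes with low counts had been left out before deposit. The members and gene lists were chosen with earlier results of these data known.

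Library sizes were scaled with TMM, and each gene was tested by quasi-likelihood in edgeR 4.0.16 (R 4.3.3; limma 3.58.1 and DESeq2 1.42.0 for alternatives). Tests were two-sided, p-values were adjusted over all genes (Benjamini-Hochberg), and an FDR under 0.1 was called. Log2 CPM had a prior count of 1. The treatment comparison in TRAP was fitted on its 9 libraries (common biological coefficient of variation 0.271) and all others on 13 (0.250). Alternatives were other scalings, tools, filters, sample sets and prior counts, a GC offset per library (loess, span 0.5, degree 1), the replicate as a block, and each library left out.

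Replicates are separate pools of mice, but TRAP and input libraries with 1 number (DSP-4 replicates 2 and 7, saline replicate 12) come from 1 homogenate by the study's methods, and the correlation across genes of their departures from the mean of each group was 0.181, 0.266 and 0.295. The main fit took them as independent. Libraries of one group differed by more than sampling noise (chi-square per gene 24.4 to 195), so none was taken as a repeat.

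The genes named are the members, in each list up to 4 genes with the smallest p in TRAP over input of saline mice and up to 2 in DSP-4 over saline in TRAP, *Slc6a2*, *Dbh* and *Gal*, and the 3 genes most like each member. Others are named where few were called or for their role, chosen after their values were seen. A few genes that this rule names are not reported here. Annotation, GC content and sequences are from GENCODE vM21 (GRCm38), matched for 11560 genes, with the principal transcript from its APPRIS tag. The tests were tested on simulated data. The simulated libraries were independent of each other and held no trend with GC content, so they do not cover these features of the real libraries. Figures were drawn with matplotlib 3.10.9 in Python 3.11.15.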

Additional observations from a re-analysis of the deposited data

Results flagged for a closer look

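In the 6 DSP-4 TRAP libraries, replicate 2 lay far from the other 5 for a pair of the 8 genes. It held 737 CPM of *Aplp2*, where the next library had 494 CPM, a gap of 0.739 of the group's range, and 51.1 CPM of *Psen2*, where the next had 27.8 CPM, a gap of 0.679, both above the 95% critical value for a group of 6 (Dixon's ratio). Chance alone flags about 1 in 20 such groups. The same library was the lowest of the 6 for *App* (756 CPM), *Aplp1* (469 CPM), *Apoe* (912 CPM), *Clu* (377 CPM) and *Picalm* (255 CPM). Its 10 oligodendrocyte markers summed to 12445 CPM, the highest of all libraries, and its *Slc6a2* was 23.3 times the mean input, the highest of the DSP-4 TRAP libraries. The part of these in the *Aplp2* and *Psen2* values was not tested.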

How the results depend on the processing

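*Sorl1* was higher and *Aplp1* lower in TRAP than in input under all alternatives in both treatments, except that *Aplp1* in saline mice was at −0.77 (edgeR FDR 0.381) with the replicate block and GC offset together. *Picalm* was higher under all but the block in saline mice (FDR 0.148, and 0.455 with the GC offset).

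In saline mice the members called went from 4 to 2 with the replicate block and to 1 with the block and GC offset (3 to 6 with 1 library left out), and all genes called from 4217 to 1422 and 629 (2100 to 5185, lowest without saline input replicate 12, and 2431 without 5). In DSP-4 mice 5 members were called (3 to 5 with 1 library left out, 3 without DSP-4 input replicate 2 or 7), and all genes called went from 6135 to 3171 with block and GC offset (3678 to 6914, lowest without DSP-4 input replicate 7). In DSP-4 over saline in TRAP, 3 genes were called, 5 by DESeq2, 1 with the GC offset and 0 to 3 with 1 library left out (0 without DSP-4 replicate 1 or 7 or any 1 of the saline libraries, 1 without DSP-4 replicate 3 or 8). In input, 4 genes instead of 0 were called when only the input libraries entered the fit. The difference between enrichments called 1 gene instead of 0 with the replicate block. The cause of these changes was not tested.

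Signs turned as follows. With the GC offset, *Clu* was at 0.082 in saline and 0.21 in DSP-4 mice (0.11 and 0.0067 with the block added), *Apoe* at 0.14 in DSP-4 mice, and *App* there at −0.030 with block and GC offset. In DSP-4 over saline, without DSP-4 TRAP replicates 2 and 3, *App* was at 0.16, *Aplp2* at −0.088, *Psen2* at −0.19 and *Clu* at 0.00090 in TRAP, and with the GC offset *App* was at 0.012, *Apoe* at −0.024 and *Clu* at −0.14 in input. For the difference between enrichments, the GC offset gave −0.036 for *App*, 0.11 for *Aplp1*, 0.26 for *Apoe* and 0.13 for *Clu*, the fixed replicate block −0.50 and the block with GC offset −0.49 for *App*, the block as a random effect −0.044 for *App*, and the fit without DSP-4 TRAP replicates 2 and 3 −0.086 for *Psen2* and 0.012 for *Apoe*. With 1 library left out, DSP-4 over saline in TRAP ranged from −0.11 to 0.10 for *App*, −0.031 to 0.17 for *Aplp1*, −0.12 to 0.16 for *Aplp2* and −0.14 to 0.22 for *Psen2*. In input it ranged from −0.23 to 0.0092 for *App*, −0.22 to 0.014 for *Psen2* and −0.068 to 0.14 for *Clu*. The difference ranged from −0.023 to 0.22 for *App*, −0.024 to 0.35 for *Psen2*, −0.18 to 0.13 for *Apoe* and −0.18 to 0.016 for *Clu*. None of these was called in any of those fits.

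No paired analysis was possible for DSP-4 against saline because the treatments share no replicate number. *Psen2*, at 298 to 1257 counts a library, had the fewest counts and the widest intervals of the members.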
